A study of Mus musculus with 14 samples.

Results

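The genes examined are a set of pericellular proteases and their inhibitors in B16-F10 cells, a mouse melanoma line that spreads readily to the lung. The set held 9 genes: the matrix metalloproteinases Mmp2, Mmp9, Mmp14 and Mmp15, the tissue inhibitors Timp1, Timp2 and Timp3, and the plasminogen activators Plau and Plat. Its members were all probesets whose platform annotation gives 1 of these symbols, irrespective of their values. A probeset is a group of short array probes read as 1 signal. For 8 of the 9 genes there were probesets, 20 in all among the 22626 tested, and 1 gene, Mmp15, had none. Timp2 was read by 6 probesets, Timp3 by 4, Mmp2, Mmp9, Mmp14 and Plau by 2 each, and Timp1 and Plat by 1 each. None of the 20 carried a second symbol.

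The cells, grown from C57BL/6J-derived melanoma, were compared in 4 groups, and every array held total RNA of a culture described as a biological replicate. In the benzyl alcohol group (3 arrays) cells received 40 mM of this membrane-fluidising alcohol for 1 h at 37 °C. Their recovery is given as 3 h in the treatment protocol and as 30 min in the series description. In the Lipofectamine group (3 arrays) cells received the cationic liposome reagent without a plasmid for 3 h in Opti-MEM, followed by 30 min in serum-containing medium. Heat-shocked cells (3 arrays) spent 1 h at 42.5 °C and 30 min at 37 °C. The 5 arrays of control cells are labelled untreated, with no mock change of medium described, so medium and reagent cannot be told apart in the Lipofectamine group. Doses and times differed between the treatments, so differences between treated groups set whole protocols against each other.

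Matrix metalloproteinases are zinc endopeptidases made as inactive zymogens. Mmp14, also called MT1-MMP, is anchored in the plasma membrane, cleaves fibrillar collagen and, in a complex with Timp2, activates the secreted gelatinase Mmp2. The tissue inhibitors block active metalloproteinases by binding their catalytic site, and Timp3 in addition is bound to the extracellular matrix and inhibits several ADAM proteases. Plau (urokinase) and Plat (tissue-type activator) are serine proteases that convert plasminogen to plasmin, which degrades fibrin and can activate some metalloproteinases. These proteases are widely studied in melanoma as enzymes of basement membrane crossing. The arrays measured transcripts only, and secretion, zymogen activation and inhibitor binding were not measured.

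The signals were log2 values, and the array medians lay between 7.03 and 7.12. The heat shock label was borne out by Hspb1 and Hspa1b, heat shock protein genes, whose 5 probesets were 5.17 to 6.58 higher on the log2 scale in heat-shocked than in control cells. Of 7 melanocyte markers 6 were measured, with group means between 9.51 and 13.2. Sox10, a melanocyte lineage factor, was lower in heat-shocked cells by -0.98 (adjusted p = 0.0135, missed without any 1 heat shock array, up to 0.0912), and Tyr, the pigment enzyme tyrosinase, by -0.39 (adjusted p = 0.0415, missed with 7 of 11 arrays left out in turn). No melanocyte marker passed for the other treatments against all 5 control arrays. All 20 markers of fibroblasts, macrophages, endothelial and epithelial cells were measured, with group means of at most 8.28. One of them, the macrophage marker Cd68, was higher with benzyl alcohol, at 6.37, 5.78 and 6.47 against 5.16 to 5.59 in control cells (difference 0.90, adjusted p = 0.00374). The log2 summed signal of the 6 macrophage markers ranged from 9.40 to 9.61 in benzyl alcohol cells, 9.18 to 9.76 in Lipofectamine cells, 9.56 to 9.62 in heat-shocked cells and 9.20 to 9.46 in control cells. The part of these markers in the results was not tested. Control arrays 1 and 3 stood apart from control arrays 2, 4 and 5: their signals did not overlap at 13 of the 20 member probesets, against 38.7% of all probesets. Over all probesets, Lipofectamine arrays correlated with control arrays 1 and 3 at r between 0.981 and 0.992 and with the other 3 at r between 0.977 and 0.983. Heat shock arrays correlated with control arrays 1 and 3 at r between 0.986 and 0.989 and with the other 3 at r between 0.975 and 0.981. Benzyl alcohol arrays showed the opposite order, between 0.977 and 0.982 with control arrays 1 and 3 and between 0.985 and 0.992 with the other 3. The labels give no reason for this division, and its part in the results below was not tested. Results are therefore also given without control arrays 1 and 3 and without control arrays 2, 4 and 5. Without control arrays 1 and 3, 3 of the 6 melanocyte markers were lower with Lipofectamine (18.8% of all probesets passed), 3 with heat shock (21.8%) and 1 with benzyl alcohol (3.03%). Without control arrays 2, 4 and 5, 0 passed with Lipofectamine (4.62%), 1 was lower with heat shock (3.72%) and 1 was higher with benzyl alcohol (12.5%). In bulk RNA, fewer cells with a transcript and less of it per cell cannot be told apart.

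Across the 6 comparisons 13 of 120 member results passed an adjusted p of 0.05 (limma, adjusted over all probesets), and they came from 6 probesets of 4 genes, Mmp14, Mmp2, Timp2 and Plat. Relative to control cells, Lipofectamine gave 0 passing member probesets of 20 (4.88% of all probesets passed), although 3 had an unadjusted p under 0.05. Heat shock gave 1 (5.96% of all passed), which was lower (4.91% of all were lower). With benzyl alcohol 2 passed (1.39% of all), 1 higher (0.689%) and 1 lower (0.698%). Between treatments, Lipofectamine against heat shock gave 1 (5.72% of all), which was higher (4.42%). Benzyl alcohol against heat shock gave 5 (7.22% of all), each of them higher (5.44%). Benzyl alcohol against Lipofectamine gave 4 (11.9% of all), 3 higher (6.71%) and 1 lower (5.22%). At the threshold of the study's methods, an F-test and a pairwise p both under 0.001, the counts were 0 for Lipofectamine against control (2.27% of all), 1 for heat shock against control (2.43%), 2 for benzyl alcohol against control (1.25%), 1 for Lipofectamine against heat shock (2.88%), 1 for benzyl alcohol against heat shock (2.37%) and 2 for benzyl alcohol against Lipofectamine (4.03%). The members are few and several read the same gene. The median log2 difference of the members lay between -0.06 and 0.11 in the 6 comparisons, and that of all probesets between -0.05 and 0.04. Between groups neighbouring in order of mean, a difference passed at only 2 member probesets, Mmp14 1416572_at (control above heat shock) and Plat (benzyl alcohol above control). Ranges of the groups did not overlap at 2 (10.4% of all), 5 (17.8%) and 3 (7.55%) member probesets for Lipofectamine, heat shock and benzyl alcohol against control. In the 3 comparisons between treatments this was so at 7 (30.4% of all) for Lipofectamine against heat shock, 10 (31.6%) for benzyl alcohol against heat shock and 10 (28.5%) for benzyl alcohol against Lipofectamine.

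**Figure D1:**
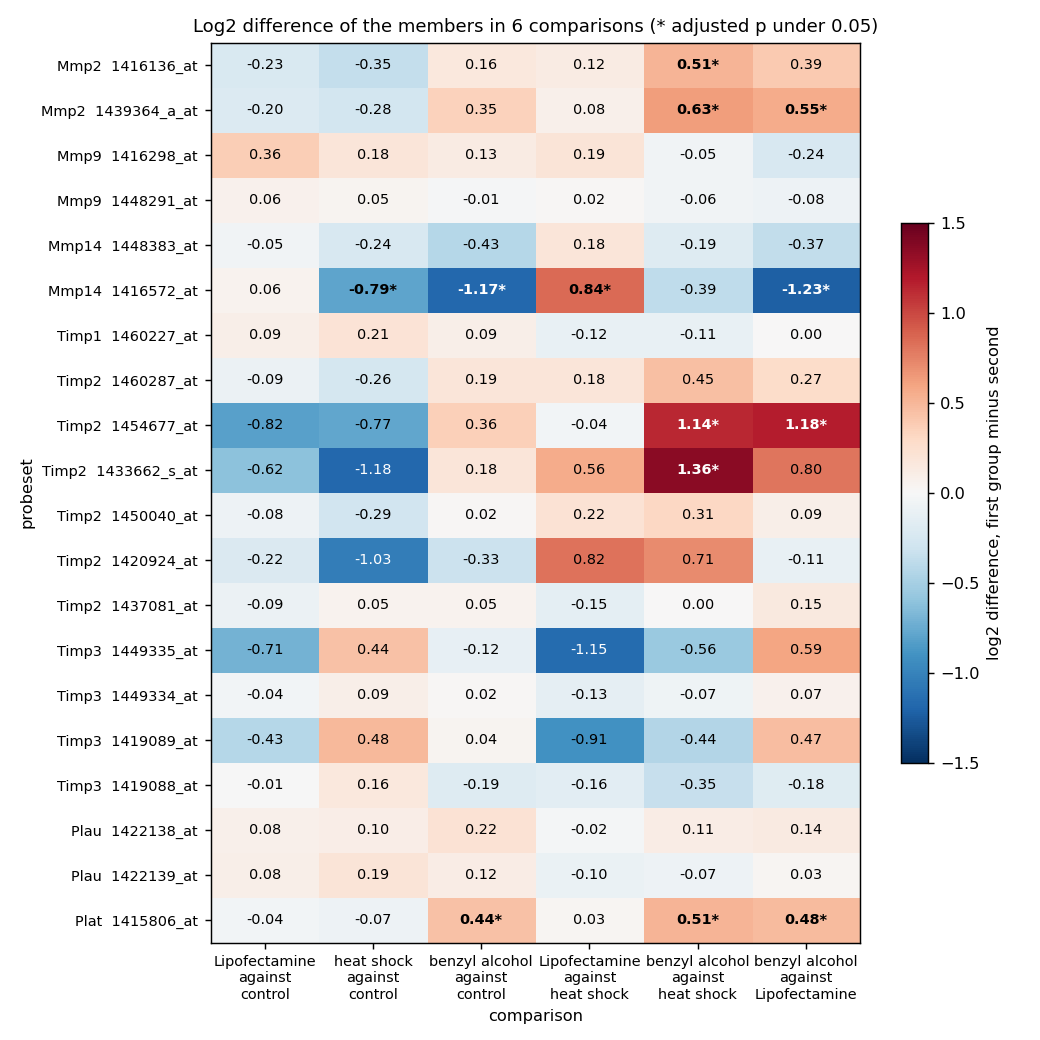
Log2 difference, first group minus second, of each of the 20 member probesets (rows) in the 6 comparisons (columns); colour gives sign and size and asterisks mark an adjusted p under 0.05. The 13 marked cells lie in the rows of Mmp14 probeset 1416572_at, Plat, both Mmp2 probesets and 2 of the 6 Timp2 probesets.

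Upstream sequences were read for the members with a promoter entry, whether or not they passed. RefSeq promoter entries (build GRCm38.p6) were matched for 5 of the 9 genes, Mmp14, Mmp15, Timp1, Timp2 and Timp3. Mmp2, Mmp9, Plau and Plat had no entry. The 250 bases before the annotated start are printed for Mmp14, the member that passed against control with both benzyl alcohol and heat shock, and for Timp2 and Timp3, the inhibitors at which control arrays 1 and 3 lay apart from the other control arrays in opposite directions. Capitals mark GC boxes, the letters GGGCGG or, on the other strand, CCGCCC, which are bound by Sp1-type factors.
Mmp14 (chr14:54431348-54431597, plus strand): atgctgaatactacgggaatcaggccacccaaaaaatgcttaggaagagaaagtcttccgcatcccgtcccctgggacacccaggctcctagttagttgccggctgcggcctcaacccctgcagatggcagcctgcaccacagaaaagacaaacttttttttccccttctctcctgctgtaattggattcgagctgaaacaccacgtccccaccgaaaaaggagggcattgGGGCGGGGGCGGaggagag
Timp2 (chr11:118355412-118355661, minus strand): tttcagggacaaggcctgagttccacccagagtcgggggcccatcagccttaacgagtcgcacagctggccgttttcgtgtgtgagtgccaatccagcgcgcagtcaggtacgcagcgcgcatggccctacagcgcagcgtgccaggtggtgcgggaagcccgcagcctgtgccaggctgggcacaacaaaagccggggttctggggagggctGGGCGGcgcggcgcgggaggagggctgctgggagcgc
Timp3 (chr10:86300162-86300411, plus strand): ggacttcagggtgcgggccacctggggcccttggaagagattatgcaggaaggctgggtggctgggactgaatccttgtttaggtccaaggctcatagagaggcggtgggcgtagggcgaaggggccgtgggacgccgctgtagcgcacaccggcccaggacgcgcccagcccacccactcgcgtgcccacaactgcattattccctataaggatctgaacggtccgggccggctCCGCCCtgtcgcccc

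A GC box was found in each of the 5 windows, against 32.7% of the 32851 promoters of this length. Mmp14 had 2 in tandem, which began 19 and 13 bases before the start, Timp2 had 1 at 37 bases and Timp3 1 at 15 bases. The G and C content was 55.2% for Mmp14, 68% for Timp2 and 65.6% for Timp3. The heat shock element GAANNTTC or TTCNNGAA (12.8% of all promoters), the AP-1 site TGANTCA (6.75%) and the E-box in the form CACGTG or the form CATGTG (17.6%), searched on both strands, were not in these letters of any of the 5 windows. Adjoining GC boxes of Mmp14 share no base, and no other motif overlapped them. A match is a description of the sequence and not a bound site.

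Mmp14 (Entrez 17387, chr14:54431598-54442456, GRCm38.p6), the membrane-anchored collagenase, was lower after benzyl alcohol and after heat shock and was not changed detectably by Lipofectamine. Probeset 1416572_at read 7.47, 7.39 and 6.83 in benzyl alcohol cells, 8.46, 8.69 and 8.22 in Lipofectamine cells, 7.67, 7.46 and 7.71 in heat-shocked cells and 8.49, 8.38, 7.97, 8.54 and 8.64 in control cells. All benzyl alcohol and heat shock arrays lay below all control arrays, while the Lipofectamine arrays lay within or just above the control range. The means were 7.23 ± 0.35 in benzyl alcohol cells, 8.46 ± 0.23 in Lipofectamine cells, 7.62 ± 0.13 in heat-shocked cells (SD, n = 3 each) and 8.40 ± 0.26 in control cells (SD, n = 5). Benzyl alcohol against control gave -1.17 ± 0.17 (SE), a 2.26-fold lower signal, with an adjusted p of 0.00169. Heat shock against control gave -0.79 ± 0.15 (SE), 1.73-fold lower, with an adjusted p of 0.00974. The Lipofectamine difference was 0.06, with a 95% interval from -0.26 to 0.37.

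Set against each other, Lipofectamine cells had more Mmp14 signal at 1416572_at than heat-shocked cells, by 0.84 (adjusted p = 0.0100). Benzyl alcohol cells had less than Lipofectamine cells, by -1.23 (adjusted p = 0.00111). Benzyl alcohol and heat-shocked cells differed by -0.39 (adjusted p = 0.242, 95% interval from -0.78 to 0.01), which does not separate them. In order of mean the groups ran Lipofectamine, control, heat shock, benzyl alcohol, and of the neighbours only control and heat shock differed beyond their spread.

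The other Mmp14 probeset, 1448383_at, ran the same way with smaller differences. Its signal was 9.86 ± 0.17 in benzyl alcohol cells, 10.23 ± 0.21 in Lipofectamine cells, 10.05 ± 0.086 in heat-shocked cells and 10.28 ± 0.094 in control cells. Here the benzyl alcohol difference from control was -0.43 (adjusted p = 0.0638) and that of heat shock -0.24 (adjusted p = 0.199), and neither passed, although in both comparisons the treated arrays lay below every control array. Both probesets correlated at r = 0.866 over the 14 arrays, which share treatment groups. With the mean of both probesets as the gene's value, benzyl alcohol gave -0.80 (adjusted p = 0.00356) and heat shock -0.51 (adjusted p = 0.0191) against control. The benzyl alcohol result at 1416572_at passed with each array left out, and it also passed without control arrays 1 and 3 (adjusted p = 0.000295) and without control arrays 2, 4 and 5 (adjusted p = 0.00316). The heat shock result did not: without heat shock array 2 it was -0.71 (adjusted p = 0.0734), and without control arrays 2, 4 and 5 it was -0.62 (adjusted p = 0.0516). Lipofectamine against heat shock missed the threshold without heat shock array 2 (adjusted p = 0.0573) or Lipofectamine array 2 (adjusted p = 0.0563).

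**Figure D2:**
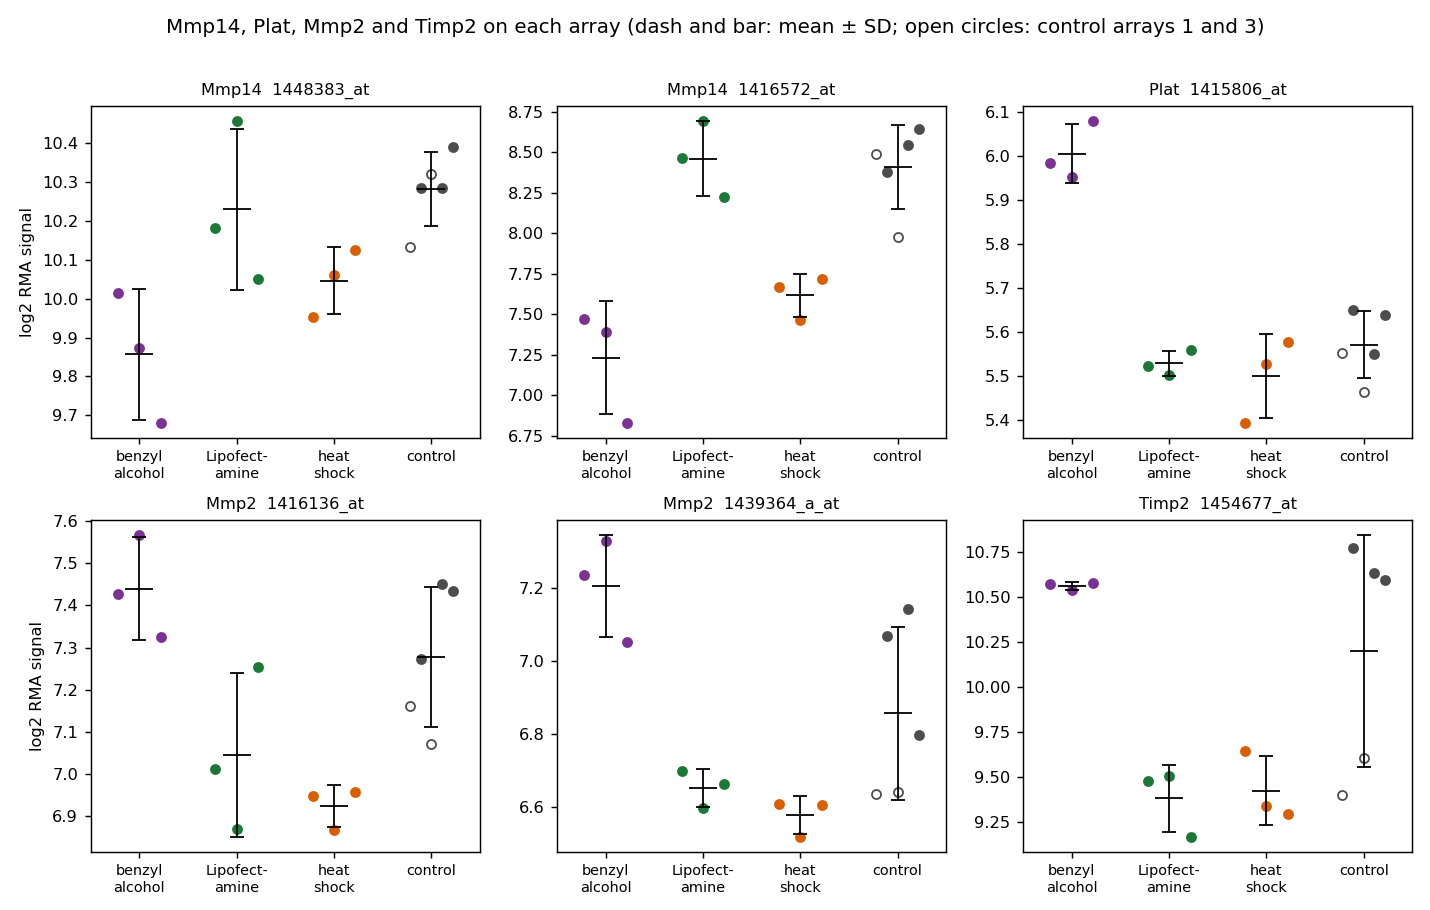
Log2 RMA signal on each array for Mmp14, Plat, Mmp2 and Timp2 in the 4 groups; each panel has its own axis, which does not start at 0, dashes and bars give mean ± SD, and open circles are control arrays 1 and 3. Mmp14 probeset 1416572_at is low in benzyl alcohol and heat shock arrays, Plat is between 5.95 and 6.08 in the 3 benzyl alcohol arrays and at most 5.65 elsewhere, and at Timp2 the control arrays divide into 9.40 and 9.61 against 10.59 to 10.77.

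Mmp2 (Entrez 17390, chr8:92827290-92853421), the gelatinase that cleaves type IV collagen and is activated through Mmp14, was highest in benzyl alcohol cells and lowest in heat-shocked cells, with the control cells between. Probeset 1439364_a_at read 7.24, 7.33 and 7.05 in benzyl alcohol cells, 6.70, 6.60 and 6.66 in Lipofectamine cells, 6.61, 6.52 and 6.61 in heat-shocked cells and 6.64, 7.07, 6.64, 7.14 and 6.80 in control cells. The benzyl alcohol arrays lay above all Lipofectamine and heat shock arrays, and control arrays 1 and 3 were at the level of the Lipofectamine and heat shock arrays. Benzyl alcohol was 0.63 ± 0.13 (SE) above heat shock (adjusted p = 0.0149) and 0.55 ± 0.13 (SE) above Lipofectamine (adjusted p = 0.0146). Against control the same cells were 0.35 higher, which did not pass (adjusted p = 0.188).

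At the second Mmp2 probeset, 1416136_at, the means were 7.44 ± 0.12 in benzyl alcohol cells, 7.05 ± 0.19 in Lipofectamine cells, 6.92 ± 0.049 in heat-shocked cells and 7.28 ± 0.17 in control cells. Benzyl alcohol exceeded heat shock by 0.51 (adjusted p = 0.0246), and against Lipofectamine the difference was 0.39 (adjusted p = 0.0516). The 3 heat shock arrays, 6.95, 6.87 and 6.96, lay below all 5 control arrays, the lowest of which was 7.07, with a difference of -0.35 (adjusted p = 0.0848). Without control arrays 1 and 3 heat shock was -0.46 (adjusted p = 0.00651) and Lipofectamine -0.34 (adjusted p = 0.0450) at this probeset, and at 1439364_a_at -0.43 (adjusted p = 0.00882) and -0.35 (adjusted p = 0.0324). Without control arrays 2, 4 and 5 no Mmp2 difference of either treatment from control passed, whereas benzyl alcohol at 1439364_a_at was 0.57 above control (adjusted p = 0.00397). Each of the 3 Mmp2 results between treatments missed the threshold with some single array left out: benzyl alcohol against Lipofectamine at 1439364_a_at without benzyl alcohol array 2 (adjusted p = 0.0518), benzyl alcohol against heat shock at 1439364_a_at without benzyl alcohol array 1 or heat shock array 2 or 3 (adjusted p up to 0.0743), and at 1416136_at without any of heat shock arrays 1, 2 and 3 and benzyl alcohol arrays 1 and 2 (adjusted p up to 0.0978).

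Mmp9 (Entrez 17395, chr2:164940326-164955850), the other gelatinase, passed in no comparison. Probeset 1416298_at read 5.86, 6.26 and 6.28 in benzyl alcohol cells, 6.24, 6.19 and 6.69 in Lipofectamine cells, 6.17, 6.22 and 6.17 in heat-shocked cells and 5.99, 6.18, 6.00, 5.96 and 5.92 in control cells. The Lipofectamine arrays lay just above the control range, 6.19 against 6.18 at the closest, and 1 array, at 6.69, was apart from the other 2. The Lipofectamine difference was 0.36 (adjusted p = 0.0913), and after renewed quantile normalization 0.37 (adjusted p = 0.0381). At the second probeset, 1448291_at, it was 0.06 (adjusted p = 0.847), and the 2 probesets correlated at only r = 0.197 over the 14 arrays, so a change of the gene was not shown. Heat shock gave 0.18 at 1416298_at, with a 95% interval from -0.07 to 0.43, and benzyl alcohol 0.13, with an interval from -0.14 to 0.39.

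Timp2 (Entrez 21858, chr11:118301061-118355411, minus strand), the inhibitor that also bridges Mmp14 and pro-Mmp2, was higher in benzyl alcohol cells than in heat-shocked cells at 2 of its 6 probesets and than in Lipofectamine cells at 1, and no difference from control passed. Probeset 1454677_at read 10.57, 10.53 and 10.57 in benzyl alcohol cells, 9.48, 9.50 and 9.17 in Lipofectamine cells, 9.64, 9.34 and 9.29 in heat-shocked cells and 9.40, 10.77, 9.61, 10.63 and 10.59 in control cells. The benzyl alcohol arrays stood together with control arrays 2, 4 and 5, and the Lipofectamine and heat shock arrays with control arrays 1 and 3. Benzyl alcohol exceeded heat shock by 1.14 ± 0.29 (SE), 2.20-fold (adjusted p = 0.0308), and Lipofectamine by 1.18 ± 0.29 (SE), 2.26-fold (adjusted p = 0.0153).

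Probeset 1433662_s_at, whose suffix in the array's naming marks probes that can match transcripts of more than 1 gene, read 10.02, 9.96 and 9.69 in benzyl alcohol cells, 8.99, 9.32 and 8.95 in Lipofectamine cells, 8.90, 8.34 and 8.36 in heat-shocked cells and 9.01, 10.15, 8.63, 10.21 and 10.54 in control cells. Benzyl alcohol exceeded heat shock by 1.36 (adjusted p = 0.0410), a result missed after renewed quantile normalization (1.25, adjusted p = 0.0627), and against Lipofectamine the difference of 0.80 did not pass (adjusted p = 0.195). The remaining 4 probesets passed nowhere. Of these, 1437081_at had group means from 4.89 to 5.04 and correlated with the other 5 at r between -0.094 and 0.406, whereas those 5 correlated with each other at r between 0.411 and 0.909.

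What Timp2 showed against control depended on the control arrays. At 5 of the 6 probesets control arrays 1 and 3 both lay below control arrays 2, 4 and 5. Heat shock against control gave -1.18 at 1433662_s_at (adjusted p = 0.0690) and -0.77 at 1454677_at (adjusted p = 0.113) with all 5 control arrays. Without control arrays 1 and 3 these were -1.77 (adjusted p = 3.37e-07) and -1.24 (adjusted p = 1.54e-06), and all 5 of those probesets passed as lower. Without control arrays 2, 4 and 5 none of the 6 passed for heat shock. Lipofectamine behaved alike at 1454677_at, with -0.82 (adjusted p = 0.113) over all control arrays and -1.28 (adjusted p = 1.12e-06) without arrays 1 and 3. At 1420924_at the sign of the Lipofectamine difference turned with this choice: it was -0.82 (adjusted p = 0.000506) without control arrays 1 and 3 and 0.69 (adjusted p = 0.0280) without control arrays 2, 4 and 5. Benzyl alcohol at 1454677_at was 0.36 above control (adjusted p = 0.620) over all 5, -0.10 without arrays 1 and 3, and 1.06 (adjusted p = 0.000139) without arrays 2, 4 and 5. Benzyl alcohol against heat shock at 1454677_at missed the threshold without any 1 of the 6 arrays compared (adjusted p from 0.0601 to 0.109), and against Lipofectamine without Lipofectamine array 3 (adjusted p = 0.0621). At 1433662_s_at it was missed without any 1 of the 9 treated arrays, with an adjusted p up to 0.149 without benzyl alcohol array 1. Leaving out either set of control arrays cannot change these differences between treatments and only narrowed the spread. Both benzyl alcohol results at 1454677_at then passed, which does not test the part of the control division in them.

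**Figure D3:**
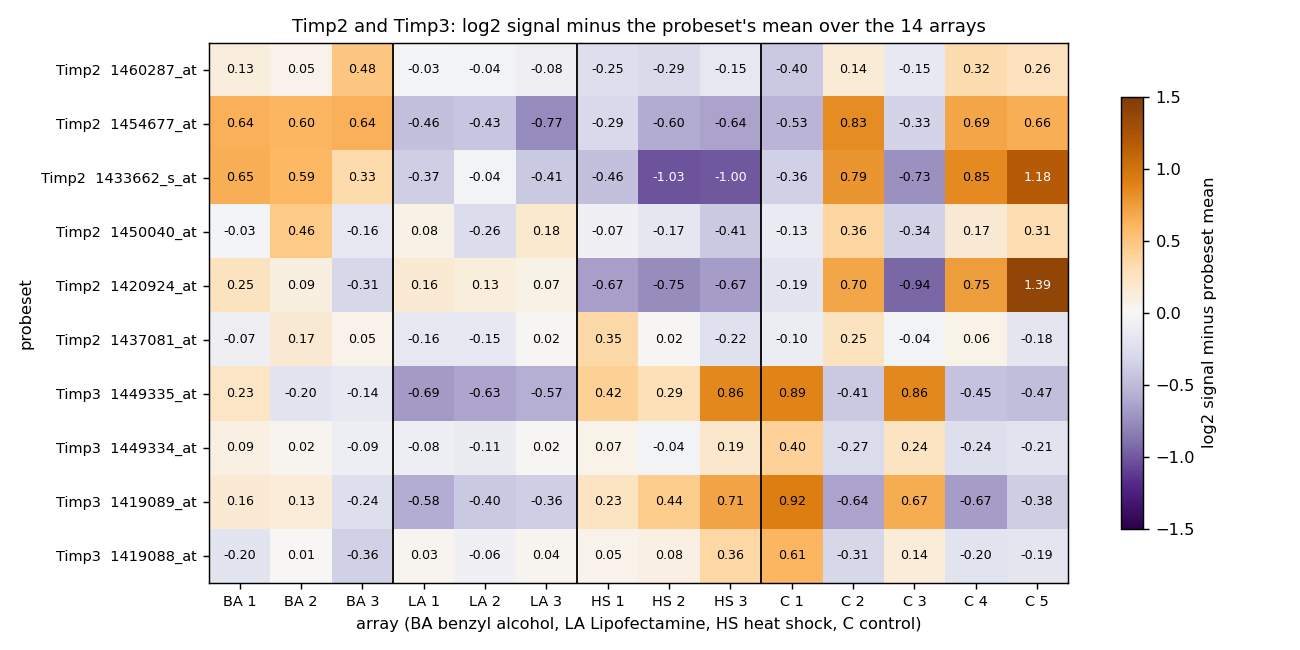
Log2 signal minus the probeset's mean over the 14 arrays for the 6 Timp2 and 4 Timp3 probesets (rows) on each array (columns; BA benzyl alcohol, LA Lipofectamine, HS heat shock, C control). Control arrays 1 and 3 are low for Timp2, except at 1437081_at, and high for Timp3; the heat shock arrays mostly share that arrangement, and the Lipofectamine arrays are low at Timp3 probeset 1449335_at.

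Timp3 (Entrez 21859, chr10:86300412-86349505), the matrix-bound inhibitor, passed in no comparison with all arrays. Probeset 1449335_at read 8.29, 7.86 and 7.92 in benzyl alcohol cells, 7.37, 7.43 and 7.49 in Lipofectamine cells, 8.48, 8.35 and 8.92 in heat-shocked cells and 8.95, 7.65, 8.92, 7.61 and 7.59 in control cells. All Lipofectamine arrays lay below all others, the heat shock arrays lay between or at the level of control arrays 1 and 3, and control arrays 2, 4 and 5 were close to the Lipofectamine arrays. Lipofectamine against heat shock gave -1.15 ± 0.35 (SE), with an adjusted p of 0.0695, and Lipofectamine against control gave -0.71 (adjusted p = 0.226). The Lipofectamine arrays also lay below the heat shock arrays at 1419089_at, by -0.91 (adjusted p = 0.163), and at 1419088_at, by -0.16 (adjusted p = 0.674). The 4 probesets correlated with each other at r between 0.671 and 0.947 over the 14 arrays.

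At all 4 Timp3 probesets control arrays 1 and 3 both lay above control arrays 2, 4 and 5. Without control arrays 1 and 3 heat shock was above control at all 4, by 0.97 at 1449335_at (adjusted p = 3.08e-05), 1.02 at 1419089_at (adjusted p = 1.76e-05), 0.31 at 1449334_at (adjusted p = 0.0370) and 0.40 at 1419088_at (adjusted p = 0.0133). Without control arrays 2, 4 and 5 the sign turned at all 4, to -0.35 at 1449335_at, and none passed. For benzyl alcohol at 1419089_at the difference from control was 0.58 (adjusted p = 0.0319) without arrays 1 and 3 and -0.78 (adjusted p = 0.00424) without arrays 2, 4 and 5. At 1449335_at the Lipofectamine arrays lay below both sets of control arrays, although the difference over all 5 did not pass (-0.71, adjusted p = 0.226). At 1449334_at, however, the Lipofectamine arrays (7.27, 7.25 and 7.38) lay between control arrays 2, 4 and 5 (7.09 to 7.15) and control arrays 1 and 3 (7.76 and 7.60). No direction of the gene Timp3 against control can therefore be given from all 5. Lipofectamine against heat shock at 1449335_at, to which control arrays give only part of the spread, passed without control arrays 1 and 3 (adjusted p = 1.45e-05) and without control arrays 2, 4 and 5 (adjusted p = 6.32e-05). It also passed after renewed quantile normalization (-1.24, adjusted p = 0.0495) and with only the arrays of these 2 groups in the fit (adjusted p = 4.15e-05). This result missed the threshold with equal array medians (adjusted p = 0.0819), a variance trend (0.0616) and all 14 arrays in the fit (0.0510). It was also missed with any single heat shock or Lipofectamine array left out, with an adjusted p up to 0.226 without heat shock array 3.

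Timp1 (Entrez 21857, chrX:20870166-20874737), the inhibitor most often described as inducible, had a narrow range over the arrays. Its probeset 1460227_at read 8.04, 8.21 and 8.28 in benzyl alcohol cells, 8.13, 8.38 and 8.01 in Lipofectamine cells, 8.38, 8.25 and 8.24 in heat-shocked cells and 8.17, 8.07, 8.18, 8.02 and 7.97 in control cells. Heat-shocked cells lay just above the control range, and the other 2 treatments overlapped with it. The heat shock difference was 0.21 (adjusted p = 0.238), with a 95% interval from -0.01 to 0.42. It passed after renewed quantile normalization, at 0.31 (adjusted p = 0.0439). Lipofectamine and benzyl alcohol each gave 0.09, with intervals from -0.13 to 0.31 and from -0.12 to 0.30.

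Plat (Entrez 18791, chr8:22757722-22782848), the tissue-type plasminogen activator, rose with benzyl alcohol, and no other difference from control passed. Its probeset 1415806_at read 5.98, 5.95 and 6.08 in benzyl alcohol cells, 5.52, 5.50 and 5.56 in Lipofectamine cells, 5.39, 5.53 and 5.58 in heat-shocked cells and 5.55, 5.65, 5.46, 5.55 and 5.64 in control cells. The 3 benzyl alcohol arrays lay above all 11 others. Benzyl alcohol was 0.44 ± 0.082 (SE) above control, 1.35-fold (adjusted p = 0.0131), 0.51 above heat shock (adjusted p = 0.00672) and 0.48 above Lipofectamine (adjusted p = 0.00445). Against control, Lipofectamine gave -0.04 (95% interval from -0.23 to 0.14) and heat shock -0.07 (from -0.25 to 0.11). The differences from heat shock and Lipofectamine passed with each array left out, and that from control missed the threshold without benzyl alcohol array 3 (0.40, adjusted p = 0.0948) and with only the benzyl alcohol and control arrays in the fit (adjusted p = 0.0789). At this probeset control arrays 1 and 3 (5.55 and 5.46) overlapped only at the edge with control arrays 2, 4 and 5 (5.55 to 5.65), with a mean lower by -0.11. The benzyl alcohol difference from control was 0.39 (adjusted p = 0.0313) without control arrays 1 and 3 and 0.50 (adjusted p = 0.00742) without control arrays 2, 4 and 5. The probeset was among the dimmest 25%, which limits its precision.

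Plau (Entrez 18792, chr14:20836662-20843388), the urokinase-type activator, did not pass in any comparison. Probeset 1422138_at read 6.17, 6.43 and 6.41 in benzyl alcohol cells, 6.23, 5.97 and 6.40 in Lipofectamine cells, 6.36, 6.04 and 6.26 in heat-shocked cells and 6.09, 6.02, 5.95, 6.27 and 6.28 in control cells, and all groups overlapped. The differences from control were 0.22 for benzyl alcohol, 0.08 for Lipofectamine and 0.10 for heat shock, and the 95% intervals of the 3 lay between -0.18 and 0.47. Probeset 1422139_at, with group means from 4.03 to 4.22, differed from control by at most 0.19 (heat shock, adjusted p = 0.303).

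**Figure D4:**
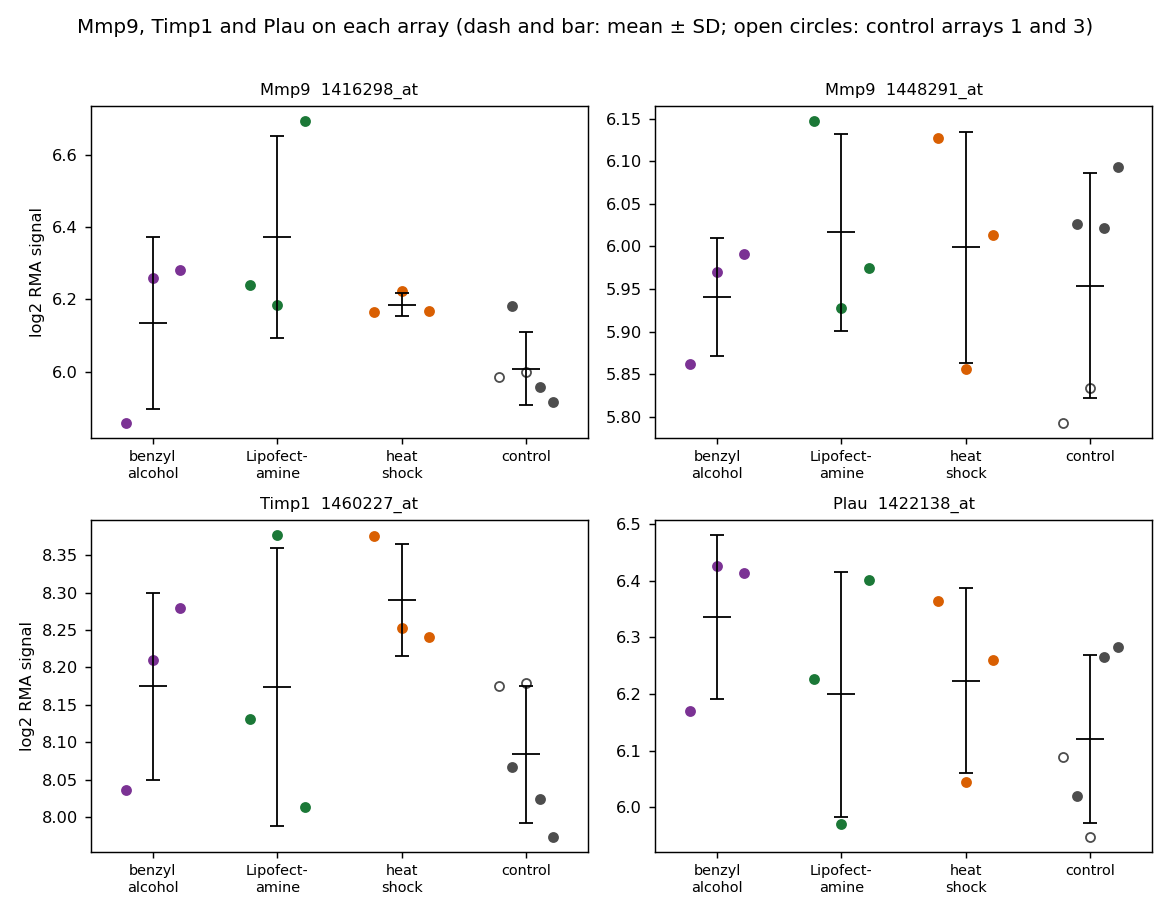
Log2 RMA signal on each array for both Mmp9 probesets, Timp1 and Plau probeset 1422138_at in the 4 groups; each panel has its own axis, which does not start at 0, dashes and bars give mean ± SD, and open circles are control arrays 1 and 3. Groups overlap or nearly touch in every panel, and the Lipofectamine array at 6.69 for Mmp9 1416298_at is apart from the other 2 of its group.

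The other genes of this protease system were read from lists, each gene from its brightest probeset. Of 20 other matrix metalloproteinases and Timp4, 16 were measured and 0 passed in any of the 6 comparisons, in which 1.39% to 11.9% of all probesets passed. With so few genes, the 0 is not a result about the family. Their median log2 difference from control was 0.05 for benzyl alcohol, 0.01 for Lipofectamine and 0.13 for heat shock, beside 0.02, -0.02 and 0.03 over all probesets. Among ADAM and ADAMTS proteases, sheddases and aggrecan-cleaving enzymes, 18 of 22 were measured. Against all 5 control arrays 0 passed with benzyl alcohol (1.39% of all probesets), Lipofectamine (4.88%) or heat shock (5.96%). Adamts4, an aggrecanase, was higher in Lipofectamine cells, 8.20, 8.25 and 8.18, than in heat-shocked cells, 7.53, 7.80 and 7.85 (difference 0.49, adjusted p = 0.0356), and lower in benzyl alcohol cells than in Lipofectamine cells by -0.50 (adjusted p = 0.0169). The first of these was missed without any 1 of the 6 arrays compared (adjusted p up to 0.156), the other without Lipofectamine array 1 or benzyl alcohol array 2 or 3 (adjusted p up to 0.0621).

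Of plasminogen, its receptors and serpins 15 of 18 were measured. Benzyl alcohol gave 1 that was higher than in control cells (1.39% of all probesets passed in either direction), Lipofectamine 3 (4.88%) and heat shock 0 (5.96%), and none was lower. Plaur, the urokinase receptor, read 9.30, 9.32 and 9.24 in Lipofectamine cells against 8.61, 8.05, 8.83, 8.11 and 7.97 in control cells, a rise of 0.97 ± 0.17 (SE; adjusted p = 0.00691). All 3 Lipofectamine arrays lay above every control array. The rise was 1.24 (adjusted p = 1.22e-07) without control arrays 1 and 3 and 0.56 (adjusted p = 0.0130) without control arrays 2, 4 and 5. Benzyl alcohol cells, at 8.47, 8.48 and 8.28, were below Lipofectamine cells by -0.88 (adjusted p = 0.00628).

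S100a10, which with annexin A2 forms a plasminogen docking site at the cell surface, rose with benzyl alcohol and with Lipofectamine. It read 10.82, 10.80 and 10.88 in benzyl alcohol cells, 10.75, 10.87 and 10.60 in Lipofectamine cells, 10.48, 10.35 and 10.34 in heat-shocked cells and 10.31, 10.16, 10.38, 10.29 and 10.40 in control cells. Benzyl alcohol gave 0.52 (adjusted p = 0.00707) and Lipofectamine 0.43 (adjusted p = 0.0205) against control. The first passed with each array left out, while the second missed the threshold without control array 4 (adjusted p = 0.0512), Lipofectamine array 1 (adjusted p = 0.102) or Lipofectamine array 2 (adjusted p = 0.0670) and without control arrays 2, 4 and 5 (adjusted p = 0.0939). Benzyl alcohol also exceeded heat shock, by 0.44 (adjusted p = 0.0188), a result missed without benzyl alcohol array 1 or 3 or heat shock array 2 or 3 (adjusted p up to 0.0812).

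Serpinb9, an intracellular inhibitor of granzyme B, was 0.60 higher in Lipofectamine cells than in control cells (adjusted p = 0.0356) and lower in benzyl alcohol than in Lipofectamine cells by -0.62 (adjusted p = 0.0224). The first was missed with 9 of the 11 arrays left out in turn (adjusted p up to 0.126) and without control arrays 2, 4 and 5 (adjusted p = 0.203), and the other with 5 of 14 (adjusted p up to 0.0889). The arrays concerned were all but control arrays 1 and 3 in the first and the 3 Lipofectamine arrays and benzyl alcohol arrays 1 and 3 in the other. Serpinf1, a secreted serpin without protease inhibition known as PEDF, read 8.60, 8.63 and 8.71 in benzyl alcohol cells and 9.61, 9.48 and 9.42 in Lipofectamine cells (difference -0.86, adjusted p = 0.0167, missed without Lipofectamine array 1, adjusted p = 0.0696, or benzyl alcohol array 1, adjusted p = 0.0529).

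Of activators, anchors and membrane regulators of metalloproteinases 18 of 20 were measured. Against control, 1 was lower with each treatment and 0 were higher. This was Reck with benzyl alcohol (1.39% of all probesets passed in either direction) and Lipofectamine (4.88%), and Sdc1 with heat shock (5.96%). Reck, a membrane-anchored glycoprotein that inhibits Mmp14, Mmp2 and Mmp9, read 6.98, 6.93 and 7.25 in benzyl alcohol cells, 7.19, 7.49 and 7.30 in Lipofectamine cells, 7.57, 7.63 and 7.35 in heat-shocked cells and 8.02, 7.55, 8.00, 7.97 and 7.67 in control cells. The benzyl alcohol and Lipofectamine arrays lay below all control arrays. Reck fell by 0.79 with benzyl alcohol (adjusted p = 0.00548), which passed with each array left out, and by 0.52 with Lipofectamine (adjusted p = 0.0369), which was missed without control array 4, heat shock array 1, 2 or 3, or Lipofectamine array 1 or 3 (adjusted p up to 0.188). Heat shock gave -0.32 (adjusted p = 0.152).

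Sdc1, the proteoglycan syndecan-1, which metalloproteinases shed, read 9.41, 9.15 and 9.28 in benzyl alcohol cells, 7.92, 8.11 and 7.75 in Lipofectamine cells, 7.81, 7.70 and 7.66 in heat-shocked cells and 8.09, 8.95, 8.08, 9.01 and 9.20 in control cells. Benzyl alcohol exceeded heat shock by 1.56 (adjusted p = 0.00304) and Lipofectamine by 1.36 (adjusted p = 0.00338), and both passed with each array left out. The fall with heat shock against control, -0.94 (adjusted p = 0.0320), was -0.36 (adjusted p = 0.138) without control arrays 2, 4 and 5 and was missed with 7 of 11 arrays left out in turn, which were control arrays 2, 4 and 5, the 3 heat shock arrays and Lipofectamine array 1 (adjusted p up to 0.131).

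Of the 18 genes measured in the same list, 4 were higher in benzyl alcohol cells than in heat-shocked cells (5.44% of all probesets were higher). Compared with Lipofectamine cells 4 were higher (6.71%), and Sdc1, Cav1 and Rhbdf1 were in both. Cav1, the caveolar coat protein, read 7.41, 7.26 and 7.21 in benzyl alcohol cells, 6.13, 6.19 and 6.41 in Lipofectamine cells, 6.50, 6.51 and 6.59 in heat-shocked cells and 6.34, 6.92, 6.19, 7.14 and 7.07 in control cells. Its difference was 1.05 against Lipofectamine (adjusted p = 0.00469), with each array left out also past the threshold, and 0.76 against heat shock (adjusted p = 0.0377), which was missed with 7 of 14 arrays left out in turn, the 6 compared and Lipofectamine array 1 (adjusted p up to 0.147). Rhbdf1, an inactive rhomboid protein that serves Adam17, exceeded heat shock by 0.65 (adjusted p = 0.0215) and Lipofectamine by 0.54 (adjusted p = 0.0300). Each was missed with 5 of 14 arrays left out in turn, benzyl alcohol arrays 1 and 2 and all 3 of the group compared (adjusted p up to 0.109 and up to 0.106). Outside the rule for named genes, and chosen after its values were seen, Cd44, a hyaluronan receptor that docks Mmp9 and Mmp14, was the fourth above heat shock, by 0.58 (adjusted p = 0.0382, missed with 6 of 14 arrays left out, up to 0.137). Those were the 3 heat shock arrays, Lipofectamine array 1 and benzyl alcohol arrays 1 and 3. Likewise Itgav, the integrin alpha-v chain, was the fourth above Lipofectamine, by 0.43 (adjusted p = 0.0489), and was missed with 11 of 14 arrays left out, all but control arrays 1 and 3 and Lipofectamine array 2 (up to 0.196).

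All 21 basement membrane and matrix substrates were measured. Against all 5 control arrays 0 passed with benzyl alcohol (1.39% of all probesets), Lipofectamine (4.88%) or heat shock (5.96%). Sparc, a collagen-binding matricellular protein, read 12.50, 12.39 and 12.45 in benzyl alcohol cells, 11.73, 11.77 and 11.64 in Lipofectamine cells, 11.95, 11.88 and 11.89 in heat-shocked cells and 11.72, 12.22, 11.85, 12.37 and 12.30 in control cells. The benzyl alcohol arrays lay above all others. Sparc was 0.73 higher with benzyl alcohol than with Lipofectamine (adjusted p = 0.00524), which passed with each array left out, and 0.54 higher than with heat shock (adjusted p = 0.0381), missed with 7 of 14 arrays left out in turn, the 6 compared and Lipofectamine array 1 (adjusted p up to 0.140). Lama5, a laminin chain, was lower with benzyl alcohol than with heat shock by -0.49 (adjusted p = 0.0219, missed without heat shock array 1, 2 or 3 or benzyl alcohol array 1, up to 0.106). Nid1, which links laminin to collagen IV, was 0.65 higher with Lipofectamine than with heat shock (adjusted p = 0.0245, missed without Lipofectamine array 1 or 2 or any heat shock array, up to 0.117). It was lower with benzyl alcohol than with Lipofectamine by -0.53 (adjusted p = 0.0395), missed with 7 of 14 arrays left out in turn, any Lipofectamine array, heat shock array 1 or 3, or benzyl alcohol array 2 or 3 (up to 0.135). Of the genes named from the lists and markers, control arrays 1 and 3 lay above control arrays 2, 4 and 5 for Plaur, Serpinb9, Serpinf1, Reck and Nid1 and below them for Sdc1, Cav1, Rhbdf1, Cd44, Itgav, Sparc, Sox10 and Tyr, while at S100a10, Adamts4, Lama5 and Cd68 they overlapped.

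**Figure D5:**
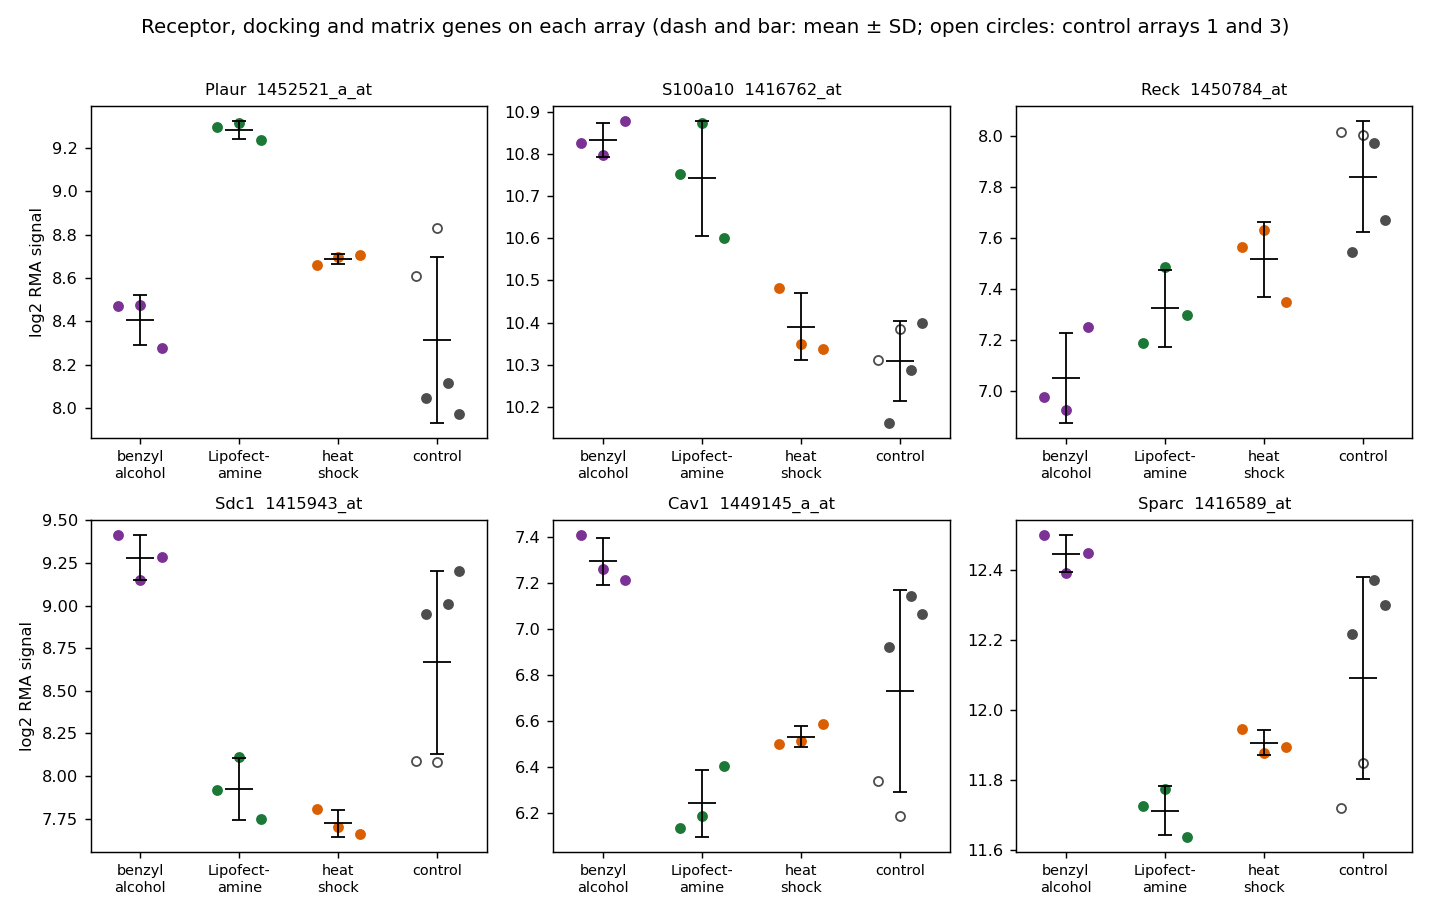
Log2 RMA signal on each array for Plaur, S100a10, Reck, Sdc1, Cav1 and Sparc in the 4 groups; each panel has its own axis, which does not start at 0, dashes and bars give mean ± SD, and open circles are control arrays 1 and 3. Plaur is highest in the Lipofectamine arrays, between 9.24 and 9.32, Reck is lowest in the benzyl alcohol arrays, and the open circles of Sdc1, Cav1 and Sparc lie near the Lipofectamine and heat shock arrays.

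Without control arrays 1 and 3, when 3.03% of all probesets passed for benzyl alcohol, 18.8% for Lipofectamine and 21.8% for heat shock against control, the receptors and serpins list had 1 higher gene with benzyl alcohol, 4 with Lipofectamine and 3 with heat shock against control, with none lower. Without control arrays 2, 4 and 5 (12.5%, 4.62% and 3.72% of all in the same order) it had 2 higher and 1 lower with benzyl alcohol, 1 higher with Lipofectamine and 0 with heat shock. In the list of activators and anchors, the count of lower genes with benzyl alcohol, Lipofectamine and heat shock was 1, 4 and 5 without control arrays 1 and 3, beside 0, 1 and 0 higher. It was 1, 1 and 0 without control arrays 2, 4 and 5, beside 4, 0 and 0 higher. The other metalloproteinases and Timp4 stayed at 0 against control in both. Counts for the remaining lists keep this order of treatments. The ADAM and ADAMTS list had 0, 1 and 0 higher and 0, 1 and 1 lower without control arrays 1 and 3. It had 1, 1 and 0 higher and 1, 0 and 1 lower without control arrays 2, 4 and 5. For the matrix substrates 0, 1 and 1 were higher and 0, 1 and 2 lower without control arrays 1 and 3. These became 1, 0 and 0 higher and 0, 1 and 0 lower without control arrays 2, 4 and 5.

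Some results of the list and marker genes missed the threshold under other settings of the fit. With only the arrays of the 2 groups compared, these were S100a10 (adjusted p = 0.0612), Serpinb9 (0.0875) and Reck (0.0841) for Lipofectamine against control, Sdc1 and Tyr (0.0656 each) for heat shock against control, Cd68 (0.0547) for benzyl alcohol against control and Itgav (0.0753) for benzyl alcohol against Lipofectamine. After renewed quantile normalization they were Sdc1 (adjusted p = 0.0558) and Tyr (0.0551) for heat shock against control, Adamts4 (0.0522) for Lipofectamine against heat shock, Cd44 (0.0585) and Sparc (0.0556) for benzyl alcohol against heat shock and Itgav (0.0548) for benzyl alcohol against Lipofectamine. With the array medians made equal, Reck for Lipofectamine against control (adjusted p = 0.0503) and Nid1 (0.0585) and Itgav (0.0549) for benzyl alcohol against Lipofectamine were missed, and with a variance trend Itgav was (0.0509). Tyr for heat shock against control was also missed without control arrays 2, 4 and 5 (adjusted p = 0.296).

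The genes whose signal ran most like that of a member over the 14 arrays, by Pearson correlation with its brightest probeset, were Fign (r = 0.922), Marcks (0.918) and Dusp2 (0.915) for Mmp2, and Tmem135 (0.909), Gtpbp3 (0.893) and Pnkd (0.885) for Mmp14. For Timp2 they were Anapc15 (0.962), Mthfd1 (0.927) and Bhlhe40 (0.926), and for Plat they were Nppb (0.959), Nr2f2 (0.942) and Dusp14 (0.927). The 14 points share 4 treatment groups and the division among the control arrays, and these are the highest of 12393 genes, so the values are descriptions.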

How the data were processed

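Total RNA of B16-F10 cells was read on Affymetrix mouse expression arrays, 1 a culture. The deposited values are log2 signals, which the authors obtained by RMA (background correction, normalization of arrays to 1 distribution, probe summary). Whether all 14 arrays were normalized in 1 run is not given. RMA assumes that most transcripts do not change and compresses small differences at low signal. GCOS 1.2 is named in the submitters' processing notes, and the RMA version is not given in the sources used here.

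Of 22690 probesets 64 Affymetrix controls were left out, and 20380 had 1 symbol in the platform annotation. Differences were fitted with limma 3.58.1 (R 4.3.3), and p-values were adjusted by Benjamini-Hochberg over 22626 probesets. Comparisons without benzyl alcohol used 11 arrays, the others all 14. The fit was tested on simulated data with independent noise. These held no division of the control arrays, so the test does not bear on it. The number of arrays limits the precision.

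Named were all member probesets, up to 4 passing genes of each list by smallest p (a gene read from its probeset of highest mean), and the 3 genes most correlated with each passing member. The members and lists were chosen with earlier results of these data known. The expression of Mmp15 was not analysed here. Alternatives were renewed quantile normalization, equal array medians, leaving out the dimmest 25% of probesets, a variance trend and the methods' threshold. Others were only the 2 groups compared, all 14 arrays, and a replicate block with control arrays 4 and 5 left out. Each array, and control arrays 1 and 3 or 2, 4 and 5, were also left out.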

Additional observations from a re-analysis of the deposited data

How the results depend on the processing

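Of the 13 member results that passed, 4 held under every alternative run for them: Mmp14 at 1416572_at for benzyl alcohol against control (adjusted p from 0.000295 to 0.0309) and against Lipofectamine (4.13e-05 to 0.0081), and Plat for benzyl alcohol against heat shock (0.00136 to 0.0381) and against Lipofectamine (0.00168 to 0.0243). Plat was not in the fit without the dimmest 25% of probesets. None of the 13 changed sign under any alternative. The precision is limited by 3 arrays a treatment, by signals near the low end for Mmp9, Plat and Plau, and by the division of the control arrays. Alternatives for background correction and for slide could not be run on summarised values.

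The count of passing members changed by over 1.5 times as follows, with the share of all probesets that passed in brackets. For Lipofectamine against control, 0 (4.88%) became 1 (5.38%) after renewed quantile normalization, 5 (18.8%) without control arrays 1 and 3 and 3 (4.62%) without control arrays 2, 4 and 5. For heat shock against control, 1 (5.96%) became 2 (5.5%) after quantile normalization and 2 (6.38%) in a fit of all 14 arrays, 12 (21.8%) without control arrays 1 and 3, and 0 (3.72%) without control arrays 2, 4 and 5. For benzyl alcohol against control, 2 (1.39%) became 1 (1.82%) without the dimmest probesets, 1 (0.358%) with only the 2 groups, 5 (3.03%) without control arrays 1 and 3 and 9 (12.5%) without control arrays 2, 4 and 5. For Lipofectamine against heat shock, 1 (5.72%) became 2 (7.22%) after quantile normalization and 5 with only the 2 groups (12.8%), without control arrays 1 and 3 (13.6%) or without control arrays 2, 4 and 5 (11.6%). For benzyl alcohol against heat shock, 5 (7.22%) became 1 (2.37%) at the methods' threshold, 8 (14.7%) with only the 2 groups, 9 (15.5%) without control arrays 1 and 3 and 8 (13.9%) without control arrays 2, 4 and 5. For benzyl alcohol against Lipofectamine, 4 (11.9%) became 2 (4.03%) at the methods' threshold, 9 (19.2%) without control arrays 1 and 3 and 8 (17.4%) without control arrays 2, 4 and 5. A smaller change was 3 (1.78%) after quantile normalization for benzyl alcohol against control. For benzyl alcohol against heat shock there were 4 (7.3%) after it and 4 (10.2%) without the dimmest probesets. For benzyl alcohol against Lipofectamine there were 6 (13.4%) after it, 5 (10.9%) with equal array medians and 6 (12.7%) with only the 2 groups. With single arrays left out the counts were 0 to 1, 0 to 5, 1 to 3, 0 to 2, 1 to 6 and 3 to 6 in the same order. The 0 and the 5 of heat shock against control came without heat shock array 2 (1.14% of all) and without control array 3 (11.7%), so the share of all probesets moved with them. In comparisons between treatments the control arrays changed only the spread. The cause of the other changes was not tested.

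Replicate numbers showed no regular pairing of the arrays: of 18 same-numbered pairs 3 had deviations from the group mean correlated over 0.1 (range -0.56 to 0.44). The division of the control arrays enters the control deviations, so a pairing is not excluded. A replicate block was fitted with control arrays 4 and 5 left out, so the block and the changed control set cannot be told apart. It gave 0 for heat shock against control (0.849% of all probesets, Mmp14 -0.66, adjusted p = 0.0921). For benzyl alcohol against control it gave 1 (1.26%, Plat 0.45, adjusted p = 0.0666). For Lipofectamine against heat shock it gave 2 (4.42%, Timp3 1449335_at was added, adjusted p = 0.0157). The counts of 0, 5 and 4 in the other comparisons stayed. Of the list and marker genes the block missed (adjusted p in brackets) Plaur (0.0583), S100a10 (0.152), Serpinb9 (0.151) and Reck (0.181) for Lipofectamine against control, Sdc1 (0.136), Sox10 (0.0947) and Tyr (0.396) for heat shock against control, Adamts4 (0.0505) for Lipofectamine against heat shock and Nid1 (0.0559) for benzyl alcohol against Lipofectamine.

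Of the member differences that missed the threshold with all arrays but passed under at least 1 alternative, the following changed sign under some alternative. Without control arrays 2, 4 and 5, for Lipofectamine against control, Mmp2 1439364_a_at became 0.015, Timp2 1433662_s_at 0.27 and Timp2 1420924_at 0.69. For heat shock against control, Timp2 1460287_at became 0.048, 1450040_at 0.018, and the 4 Timp3 probesets -0.35, -0.25, -0.33 and -0.21. For benzyl alcohol against control, Timp2 1420924_at became 0.58 and Timp3 1419089_at -0.78. Without control arrays 1 and 3, Timp3 1419089_at became 0.11 for Lipofectamine against control. For benzyl alcohol against control, Timp2 1460287_at became -0.022, 1454677_at -0.10 and 1433662_s_at -0.41, Timp3 1449335_at 0.41 and 1419088_at 0.049. With the replicate block and control arrays 4 and 5 left out, Timp2 1420924_at became 0.27 for Lipofectamine and 0.16 for benzyl alcohol against control. Timp3 1449334_at became -0.051 for heat shock and Timp3 1419089_at -0.30 for benzyl alcohol. With single arrays left out, Timp2 1420924_at for Lipofectamine against control ranged from -0.54 to 0.043, positive without control array 5. For benzyl alcohol against control, Timp2 1433662_s_at ranged from -0.088, without control array 3, to 0.39, Timp3 1449335_at from -0.26 to 0.081, positive without control array 1 or 3, and Timp3 1419089_at from -0.13 to 0.27, negative without control array 2, 4 or 5 or benzyl alcohol array 1 or 2. Of the 2240 pairs of a member difference and an alternative that missed the threshold in both fits, 100 had the sign changed, and these include part of the above.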

Other observations

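Outside the members, and chosen after their values were seen, a pair of genes divided the control arrays in opposite directions. Adamts1, a secreted protease that cleaves versican and aggrecan, read 9.79, 9.35 and 9.71 in benzyl alcohol cells, 10.82, 10.88 and 10.60 in Lipofectamine cells, 9.37, 9.06 and 9.75 in heat-shocked cells and 11.38, 8.85, 11.08, 8.92 and 9.23 in control cells. Control arrays 1 and 3 were the highest of all 14, and no difference passed (Lipofectamine against control 0.87, adjusted p = 0.405).

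Mitf, the regulator of the melanocyte lineage, read 11.36, 11.70 and 10.75 in benzyl alcohol cells, 9.23, 9.86 and 9.57 in Lipofectamine cells, 9.32, 9.50 and 9.72 in heat-shocked cells and 9.87, 11.74, 9.93, 11.62 and 11.68 in control cells. Benzyl alcohol arrays and control arrays 2, 4 and 5 stood together, as at Timp2. Benzyl alcohol exceeded heat shock by 1.76 (adjusted p = 0.0313) and Lipofectamine by 1.72 (adjusted p = 0.0212). The first was missed without any 1 heat shock array or benzyl alcohol array 1 or 2 (adjusted p up to 0.116), the other without Lipofectamine array 1 or 3 or benzyl alcohol array 1 or 2 (adjusted p up to 0.0897).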
